A study of Mus musculus with 79 samples.

Results

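RNA from the caudal vertebrae (CV) and from the inguinal white adipose tissue (iWAT) of the same 10 female mice was compared to ask which genes respond to leptin differently in marrow-rich tail bone and in subcutaneous fat. These 20 libraries, of 79 in the series, are all of those from female WT mice in which both tissues were sequenced. The mice were WT littermates (BMAd-Pnpla2+/+) of a line that lacks the lipase ATGL in bone marrow adipocytes, aged 4 to 5 months, on a mixed SJL and C57BL6 background. ICV leptin was given to 5 mice at 100 ng per h for 9 days through a cannula fed by a minipump, and ICV PBS to 5 mice, with pair feeding and single housing in both groups. By the study's own selection, the leptin group held responders only. In this text a leptin change is the log2 fold change of leptin over PBS, and the tissue difference is the change in CV minus the change in iWAT, taken within mice, so that it can depart slightly from the plain subtraction of the separate changes.

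Leptin is made by adipocytes and acts mainly in the brain, from where sympathetic nerves to fat raise lipolysis. iWAT is a subcutaneous depot that stores and releases triglyceride readily, whereas the adipocytes that fill the tail vertebrae form a depot known for holding on to its lipid. Adipocytes hydrolyse triglyceride through ATGL, hormone-sensitive lipase and monoacylglycerol lipase under the control of catecholamine and natriuretic peptide receptors. The same cells make fatty acids from glucose through ATP citrate lyase and fatty acid synthase, and sterols through the mevalonate pathway. A CV library holds RNA of bone, marrow, cartilage and adjoining muscle as well as of adipocytes, and in bulk RNA fewer cells of a type and less RNA per cell cannot be told apart.

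Total counts were 17594259 to 19364106 in CV and 17638318 to 19100698 in iWAT, and the leptin libraries of CV held more counts than any PBS library of CV. In CV the 7 adipocyte markers summed to between 8496 and 11585 TPM, the deposited length-scaled expression unit, with PBS and to between 4988 and 9305 TPM with leptin, and all 7 had a change below 0. In iWAT they summed to between 51611 and 88328 TPM, so both tissues carried the labelled cells. The 12 skeletal muscle markers in CV had a median sum of 56535 TPM with PBS (28815 to 58974) and of 23183 TPM with leptin (22344 to 48097). This shift moved with leptin in CV beside the gene changes given below. In iWAT they summed to 3454 and 3630 TPM in PBS replicates 1 and 4 and to 4787 TPM in leptin replicate 2, against 23.4 to 958 TPM in the other 7 libraries. These 3 mice were left out as an alternative chosen after seeing the data, and 53 of 143 gene results followed then lost their call. Of genes named below, the tissue differences of *Adam12*, *Apol10b*, *Bhlhe40*, *C4b*, *Cish*, *Ckb*, *Col1a1*, *Col5a1*, *Colgalt2*, *Comp*, *Gatm*, *Klf15*, *Madcam1*, *Mest*, *Mmp9*, *Mogat2*, *Nr1d2*, *Pcp4l1*, *Pipox*, *Pnpla3*, *Scd1*, *Sfrp4*, *Slc2a4* and *Tnnt2* no longer passed without them, nor did the changes of *Eva1a* in both tissues and of *Ung* in CV. Lymphocyte markers, which number 12, summed to between 235 and 375 TPM with PBS and between 270 and 528 TPM with leptin in CV, and to between 18.02 and 882 TPM over all iWAT libraries. The plot of marker levels shows each library. Mouse numbers in the labels fall into a series in the 100s and a series in the 600s, each with both treatments. The 100s held PBS replicates 1 to 3 and leptin replicates 1 and 2. In CV of the 100s the muscle markers summed to 56535 to 58974 TPM with PBS and to 30572 and 48097 TPM with leptin. In the 600s they summed to 33526 and 28815 TPM with PBS and to 22344 to 23183 TPM with leptin. The group medians of muscle markers in CV thus came from different series.

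**Figure D1:**
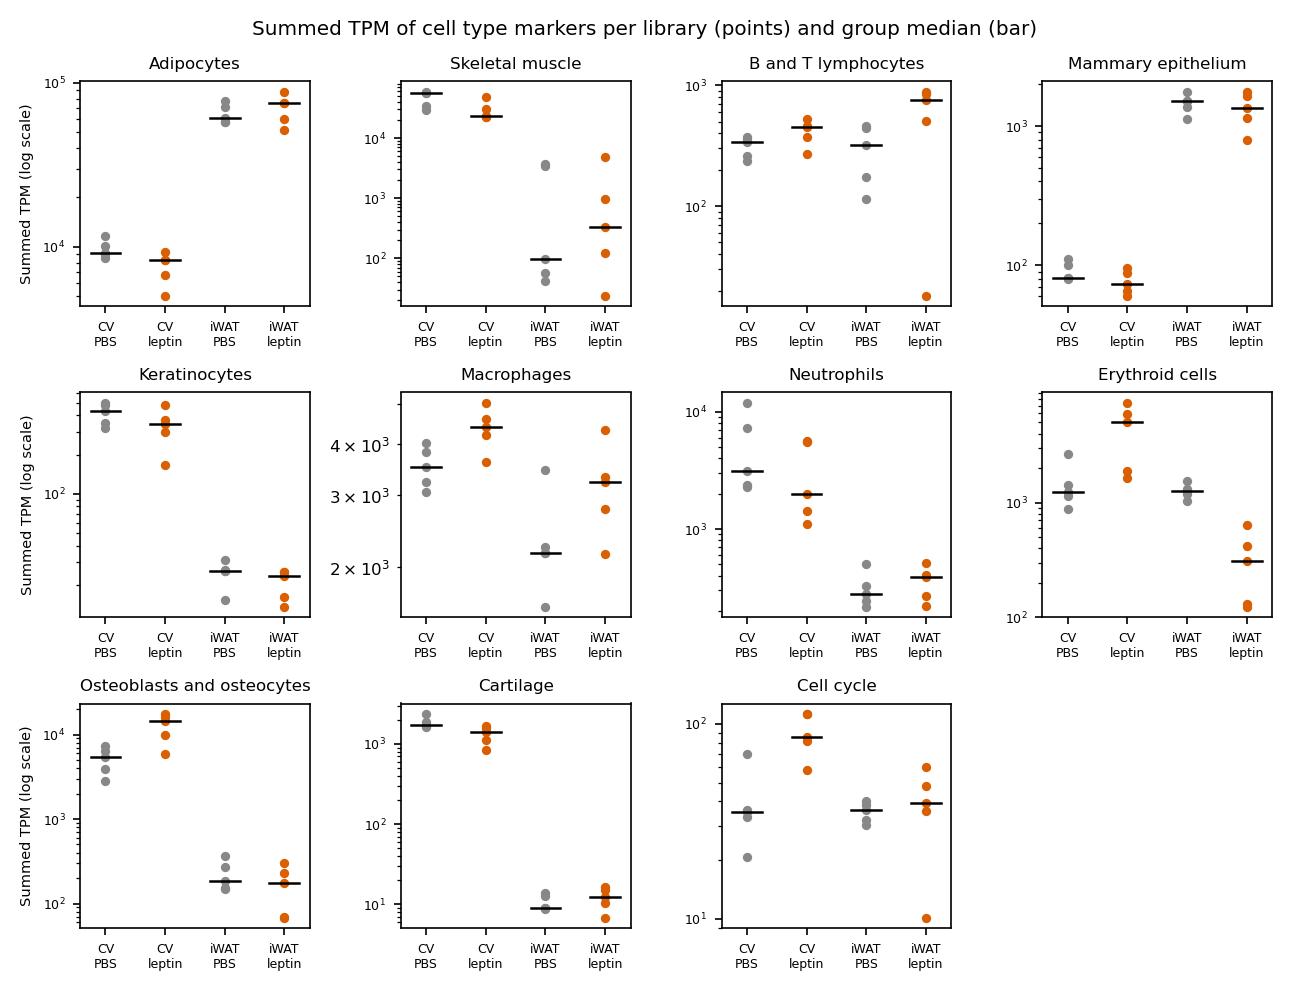
Summed TPM (log axes) of cell type markers in each female WT library, by tissue and treatment, with 5 points a group and a bar at the group median. Muscle markers reach 3454, 3630 and 4787 TPM in 3 iWAT libraries and 22344 TPM or more in all CV libraries. The erythroid sum has a higher median with leptin in CV, where the groups overlap, and is low in leptin iWAT.

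Leptin changed more genes in iWAT than in CV, and few of the genes that changed in both tissues moved in opposite directions. With edgeR's quasi-likelihood test at an adjusted p below 0.05 and an absolute log2 change of at least 0.5, 414 of 14873 genes rose in CV (2.78%) and 335 fell (2.25%), whereas 1077 rose in iWAT (7.24%) and 1171 fell (7.87%). The tissue difference passed the same thresholds for 1718 genes (11.6%), of which 1044 had the higher change in CV (7.02%) and 674 the lower (4.53%). Within-mouse differences between CV and iWAT did not overlap between leptin and PBS mice for 1914 genes (12.9%). The 1718 genes fell into 22 that moved in opposite directions, 58 that moved the same way by unequal amounts, 125 that moved in CV alone, 1088 that moved in iWAT alone and 425 that passed in neither tissue by itself. A further 105 genes moved the same way in both tissues without a called difference. In all, 163 genes passed in both tissues with the same sign, beside the 22 with opposite signs. Here "alone" means that the gene passed the thresholds in 1 tissue and that the difference between tissues passed as well. Over all tested genes the median leptin change was -0.01 in CV and 0.07 in iWAT, and 59.3% of genes had the same sign in both. The split of these calls by direction moved with the unit and test. In the count fit 60.8% of the called differences were higher in CV and 47.9% of the iWAT calls were rises. These shares were 59.1% and 40.6% with RLE size factors in place of TMM, and 73.7% and 24.7% with limma on log2(TPM + 1), which changes unit and test together. The scatter of both leptin changes shows the classes.

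**Figure D2:**
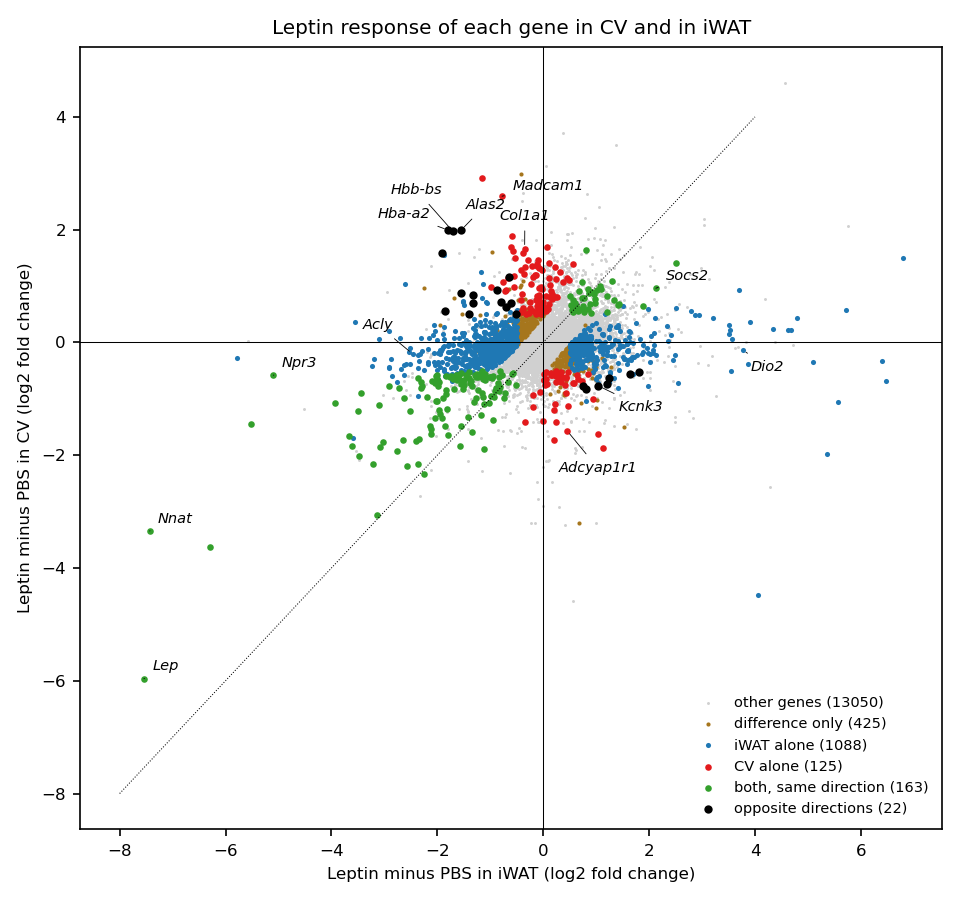
Leptin change in iWAT (x axis, log2) against leptin change in CV (y axis, log2) for 14873 genes, coloured by class, with the dotted line at equal change. *Lep*, *Nnat* and *Npr3* lie far to the left, the haemoglobin genes and *Alas2* lie at the upper left, where CV rose and iWAT fell, and most coloured points spread along the horizontal axis, where iWAT changed and CV did not pass the threshold.

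The largest opposite movements were those of 3 haemoglobin genes and *Alas2*, which rose in CV and fell in iWAT of the same mice. Of 12 erythroid markers 9 had a change below 0 in CV, though the summed level of the 12 was higher there with leptin (median 5002 TPM) than with PBS (1240 TPM). Of the 22 genes that moved in opposite directions, 15 rose in CV and fell in iWAT and 7 did the reverse. Of the 15, 4 encode haemoglobin chains or the enzyme that starts haem synthesis in red cells. In CV, *Hba-a2*, an alpha haemoglobin gene, was at 1583, 2089.9, 2151, 2599 and 4853 TPM in PBS replicates 1 to 5 and at 4895, 13062, 10636, 5544 and 19610.4 TPM in leptin replicates 1 to 5. In iWAT it was at 1528, 1310.5, 1417, 1562 and 1123 TPM with PBS and at 148, 729, 297, 137 and 563 TPM with leptin. In TPM every leptin library lay above every PBS library in CV, by a narrow margin at the nearest pair, and below every PBS library in iWAT. In log2 CPM (library-scaled counts) the groups overlapped in CV and were apart in iWAT. The leptin change was 1.99 ± 0.41 in CV (SE, adjusted p = 0.0165) and -1.79 ± 0.43 in iWAT (adjusted p = 0.0121), and the tissue difference was 4.00 (95% interval 3.30 to 4.70, adjusted p = 8.62e-05) by edgeR.

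*Alas2*, which encodes the erythroid 5-aminolevulinate synthase, followed the same course at much lower levels. It was at 11.4, 16.03, 17.6, 20.1 and 39.7 TPM in CV with PBS and at 32.8, 90.3, 87.1, 37.7 and 167 TPM with leptin. The iWAT values were 11.4, 8.11, 10.3, 12.6 and 11.03 TPM with PBS and 1.53, 5.44, 2.73, 1.34 and 6.15 TPM with leptin. PBS replicate 5 overlapped the leptin group in CV, and the groups did not overlap in iWAT. The difference was 3.66 (95% interval 3.06 to 4.26, edgeR adjusted p = 6.47e-05). *Hbb-bs*, a beta haemoglobin gene, differed by 3.81 and *Hba-a1* by 3.66. The alpha genes are near-identical copies of each other, as are the beta genes, and the counting may split reads among them. The 250 bases before the start of *Alas2* are shown because this gene marks the class, with the single match to the GATA letters AGATAA, in either orientation, in capitals (RefSeq, GRCm38.p6, chrX:150547167-150547416, plus strand):
Alas2: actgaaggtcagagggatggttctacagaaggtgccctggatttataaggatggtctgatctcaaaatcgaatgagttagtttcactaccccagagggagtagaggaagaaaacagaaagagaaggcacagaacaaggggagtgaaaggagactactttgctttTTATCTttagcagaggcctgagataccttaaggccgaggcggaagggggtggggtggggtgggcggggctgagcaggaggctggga
These letters were found in 3 of 8 promoters available for the 12 erythroid markers and in 11.4% of 27025 promoters of the same length.

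Most erythroid markers were lower in CV with leptin. Of the 12, 9 had a change below 0 there. *Hba-a1* and *Alas2* passed as rises in CV, while *Ahsp*, a chaperone of alpha haemoglobin, fell by 2.72 and *Slc4a1*, the anion exchanger of the red cell membrane, fell by 1.84. In iWAT 4 of the 12 fell, among them *Slc4a1* at -3.61, and none rose. Their median change was -1.18 in CV and -1.72 in iWAT. In iWAT 4 to 7 of the 12 markers were at 0 TPM in each leptin library, against 0 to 2 in PBS libraries. The summed markers ranged from 876 to 2653 TPM in CV with PBS and from 1652 to 7435 TPM with leptin, and from 1041 to 1540 TPM and 123 to 639 TPM in iWAT. *Hba-a2* also rose in CV of male WT mice, which were 5 with ICV PBS and 8 with ICV leptin, none given insulin, and took no part in the female tests (1.72, edgeR adjusted p = 0.00961), as did *Alas2* (1.80, adjusted p = 0.0053). In the lumbar vertebrae (LV) of the same females, which hold little fat, *Hba-a2* had a change of -0.34 and *Alas2* of -0.24, neither past the threshold. Without the 3 mice with muscle in iWAT, the difference of *Hba-a2* was still called but the gene no longer passed with opposite signs in both tissues, and the same held after leaving out PBS replicate 1 or PBS replicate 2 alone.

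Among the other genes that rose in CV and fell in iWAT were some of matrix and vessels. *Apln*, which encodes the vascular peptide apelin, was at 5.24, 5.21, 5.56, 9.21 and 8.78 TPM in CV with PBS and at 12.8, 6.50, 11.5, 20.4 and 11.6 TPM with leptin. Levels in iWAT were 5.93, 7.40, 3.15, 4.70 and 3.82 TPM with PBS and 2.13, 1.74, 1.30, 1.92 and 2.30 TPM with leptin. Only leptin replicate 2 fell within the PBS range in CV, and the iWAT groups did not overlap. The change was 0.84 ± 0.23 in CV and -1.32 ± 0.25 in iWAT, with a difference of 2.13 (95% interval 1.37 to 2.90, edgeR adjusted p = 0.00321). *Adamts9*, a matrix protease, differed by 2.48, *Plagl1*, an imprinted zinc finger factor, by 2.09, and *Chsy1*, a chondroitin synthase, by 1.89. *Rcor2*, a corepressor, *Angpt4*, an angiopoietin, and *Shox2*, a homeobox factor, differed by 2.43, 1.87 and 1.80. The smallest differences of these 15 were those of *P3h1*, a collagen prolyl hydroxylase, at 1.35 and of *1810055G02Rik* at 1.04.

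The 7 genes that fell in CV and rose in iWAT were *Ache*, *Pipox*, *Ankrd37*, *Mreg*, *Kcnk3*, *Kcne4* and *Prox1*. *Kcnk3*, which encodes the potassium channel TASK-1, was at 3.81, 4.31, 3.55, 2.54 and 3.47 TPM in CV with PBS and at 1.89, 1.78, 3.20, 2.32 and 1.56 TPM with leptin. iWAT libraries held 37.3, 52.0, 33.6, 35.0 and 26.3 TPM with PBS and 52.5, 56.4, 97.7, 77.4 and 67.5 TPM with leptin. In TPM the groups overlapped in CV and were set apart by a narrow margin in iWAT, whereas in log2 CPM they overlapped in both tissues. The difference was -1.76 (95% interval -2.18 to -1.33, edgeR adjusted p = 0.000419). *Ache*, acetylcholinesterase, had a change of -0.53 in CV and 1.81 in iWAT, and *Pipox*, a peroxisomal oxidase, of -0.57 and 1.63. *Prox1*, a factor of lymphatic endothelium and muscle, had -0.77 and 0.75.

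**Figure D3:**
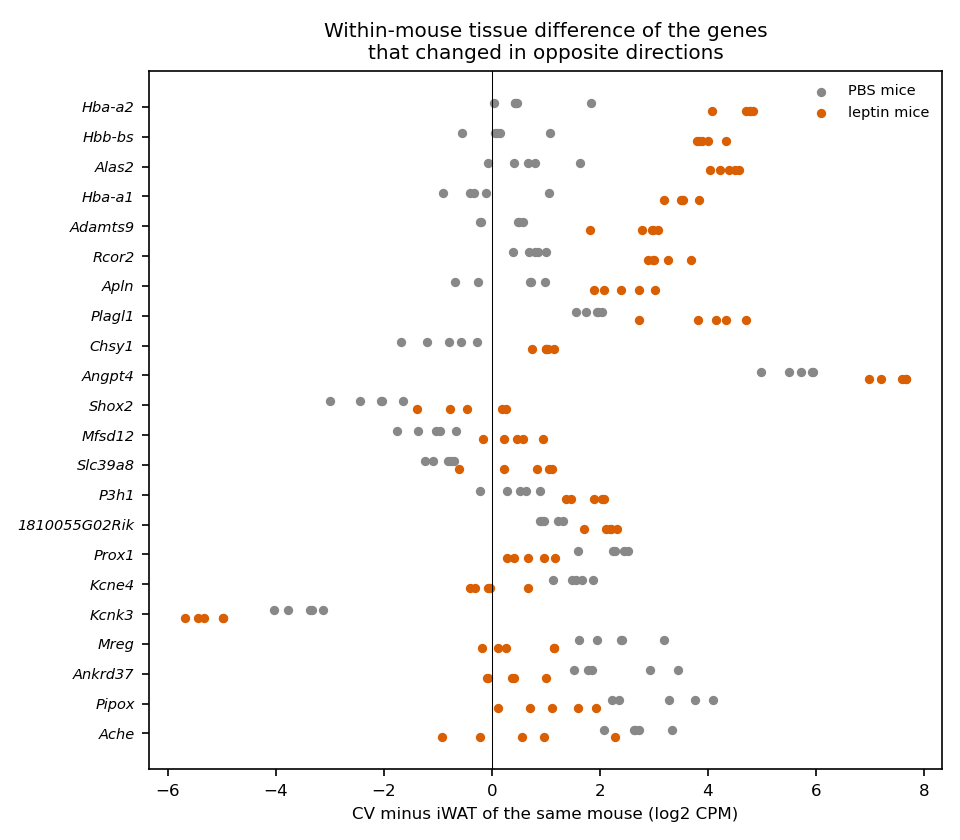
CV minus iWAT of the same mouse (log2 CPM, library-scaled counts) for the 22 genes that moved in opposite directions, with 5 PBS mice in grey and 5 leptin mice in orange. The groups are apart for 21 of the 22 genes, beside 12.9% of all tested genes, but the 22 were selected by a test of this same difference. The haemoglobin genes show the widest gap, with leptin mice between 3 and 5 and PBS mice below 2.

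The number of genes in this class was the least stable of all. It was between 1 and 26 when a single mouse was left out, with 1 gene left without PBS replicate 1, 4 without PBS replicate 2, 8 without leptin replicate 4, 9 without PBS replicate 4, 12 without leptin replicate 5 and 13 without PBS replicate 3. It was 4 without the 3 mice with muscle in iWAT. With a lymphocyte covariate, the mean log2(TPM + 1) of the lymphocyte markers in each library, it was 1. In male CV, 15 of the 22 had the same sign as in female CV (68.2%), close to the 69.4% of all tested genes. Of the 22, 7 passed in male CV with that sign, beside 258 of all 14873 tested genes.

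Both tissues shared a core response in which the adipocyte leptin gene itself nearly vanished. Of 163 genes that passed in both tissues with the same sign, 42 rose and 121 fell, and for 134 the change was larger in iWAT. *Lep* was at 37.0, 47.1, 28.9, 18.8 and 45.5 TPM in CV with PBS and at 0.25, 1.71, 0.03, 0.28 and 0.40 TPM with leptin. iWAT stood at 307, 314, 227, 189.9 and 365 TPM with PBS and at 0.16, 6.00, 0.28, 0.38 and 0.45 TPM with leptin. No leptin library came near a PBS library in either tissue, and leptin replicate 2 was the highest of the leptin group in both. The change was -5.96 ± 0.57 in CV and -7.54 ± 0.98 in iWAT, with a difference of 1.98 (95% interval 1.15 to 2.80, edgeR adjusted p = 0.00653). One leptin library of CV held a single count of *Lep*, so the size of the fall there is bounded by depth. *Nnat*, an imprinted proteolipid gene, changed by -3.34 in CV and -7.43 in iWAT.

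Several genes of triglyceride breakdown fell in both tissues. *Mgll*, which encodes monoacylglycerol lipase, was at 172, 187, 163, 139 and 188 TPM in CV with PBS and at 47.4, 61.8, 55.9, 56.1 and 52.6 TPM with leptin. In iWAT it was at 548, 497, 487, 591 and 594 TPM with PBS and at 112, 258, 119.8, 87.4 and 162 TPM with leptin. The groups did not overlap in either tissue. The changes were -1.64 and -1.80, and their difference was 0.28 with a 95% interval of -0.19 to 0.75 (edgeR adjusted p = 0.408). Of 12 lipases and their regulators 3 fell in CV and 4 in iWAT, beside 2.25% and 7.87% of all tested genes. *Pnpla2*, which encodes ATGL, had changes of 0.06 and 0.04. *Lipe*, hormone-sensitive lipase, changed by -0.98 and -0.74, and *G0s2*, the inhibitor of ATGL, by -1.49 and -2.13. Of 13 lipid droplet proteins 3 fell in CV and 6 in iWAT, with *Plin1*, the main droplet coat of adipocytes, at -1.37 and -0.95 and *Sncg*, gamma-synuclein, at -1.21 and -3.49. The difference of *Sncg*, 2.36, was called. *Pnpla3*, a lipid droplet hydrolase, was at -1.69 in CV, where it was not called, and at -3.59 in iWAT, with a called difference of 2.06 that was lost without the 3 mice with muscle in iWAT.

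Of the 58 genes that moved the same way by unequal amounts, 57 moved more in iWAT. *Npr3*, the clearance receptor of natriuretic peptides, had the largest difference among receptors of lipolysis. It was at 24.2, 25.6, 21.2, 20.6 and 20.5 TPM in CV with PBS and at 15.4, 12.5, 23.4, 20.2 and 16.1 TPM with leptin. The iWAT values were 54.7, 63.7, 62.5, 65.4 and 87.8 TPM with PBS and 1.89, 2.66, 2.29, 1.75 and 1.69 TPM with leptin. TPM of the groups overlapped in CV, where their counts (942 to 1410 with leptin and 1488 to 1954 with PBS) did not, and were wholly apart in iWAT. The difference of 4.56 (95% interval 3.99 to 5.12, edgeR adjusted p = 1.16e-05) was past the threshold in each alternative, whereas the fall of 0.58 on the log2 scale in CV was so near the threshold that *Npr3* kept its place in this class in 13 of 21 alternatives. *Cdsn*, corneodesmosin, differed by 4.81, *Tshr*, the thyrotropin receptor, by 2.22 and *Rbp4*, the retinol carrier, by 2.46, each with the deeper fall in iWAT. *Lrrc39* and *Odf3l1* differed by 3.16 and 2.84.

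Of the genes that rose in both tissues, *Socs2*, a feedback inhibitor of growth hormone signalling, was at 23.4, 18.7, 21.1, 25.1 and 26.3 TPM in CV with PBS and at 43.3, 25.2, 76.4, 54.0 and 33.5 TPM with leptin. Levels in iWAT were 14.7, 9.98, 14.1, 14.2 and 17.1 TPM with PBS and 48.4, 34.0, 77.6, 91.9 and 36.1 TPM with leptin. Leptin replicate 2 fell within the PBS range in CV, and the groups did not overlap in iWAT. The changes were 0.96 and 2.13, and the difference was -1.09 (95% interval -1.39 to -0.79, edgeR adjusted p = 0.000825). *Cish*, a related inhibitor, was the 1 gene of the 58 with the larger change in CV, at 1.64 against 0.81, and that difference was lost without the 3 mice with muscle in iWAT. *Myc*, a growth regulator, rose by 0.70 and 0.98 with no called difference (0.248 as edgeR's adjusted p), and *Socs3*, the inhibitor induced by leptin itself, by 0.54 and 0.55. *Eva1a* and *Ung*, a uracil glycosylase, also rose in both, the former by 0.94 and 0.85. Among falls, *Glb1l2* changed by -3.06 and -3.15, *Klhdc7a* by -2.33 and -2.25, and *Trarg1*, a protein of glucose transporter vesicles, by -2.16 and -2.36.

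CV alone showed 79 genes that rose and 46 that fell. *Madcam1*, which encodes an adhesion molecule of vessels that binds lymphocytes, was at 5.25, 6.57, 7.42, 11.3 and 10.2 TPM in CV with PBS and at 39.1, 43.9, 53.3, 59.5 and 59.7 TPM with leptin. iWAT libraries held 8.48, 11.01, 3.35, 11.7 and 6.73 TPM with PBS and 9.76, 5.01, 0.70, 5.76 and 1.94 TPM with leptin. The groups were far apart in CV and overlapped in iWAT. The change was 2.59 ± 0.18 in CV and -0.78 ± 0.56 in iWAT, where it did not pass the test (adjusted p = 0.327), and the difference was 3.59 (95% interval 2.15 to 5.03, edgeR adjusted p = 0.00547). *Madcam1* rose by 2.39 in male CV (edgeR adjusted p = 0.000237). With the lymphocyte covariate the difference of *Madcam1* was 3.79, and without the 3 mice with muscle in iWAT it was 3.46 and no longer passed (edgeR adjusted p = 0.0547). Of 16 vascular adhesion and endothelial genes, *Selp*, P-selectin, also rose in CV, by 0.58, with no called difference.

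*Adcyap1r1*, the receptor of the neuropeptide PACAP, fell in CV alone. It was at 27.2, 22.5, 17.1, 29.96 and 39.8 TPM in CV with PBS and at 9.50, 8.59, 10.8, 10.7 and 7.07 TPM with leptin. iWAT stood at 9.13, 9.16, 10.1, 9.94 and 8.52 TPM with PBS and at 11.1, 14.8, 13.6, 10.7 and 9.94 TPM with leptin. The groups did not overlap in CV and met in iWAT, where the leptin group was the higher. The change was -1.56 ± 0.17 in CV and 0.45 ± 0.11 in iWAT, the latter with an adjusted p of 0.0156 but below the fold threshold, and the difference was -1.93 (95% interval -2.39 to -1.47, edgeR adjusted p = 0.000419). It fell by 1.42 on the log2 scale in male CV. *Colgalt2*, a collagen galactosyltransferase, changed by -0.91 in CV and 0.43 in iWAT, and *Aldh3b2*, an aldehyde dehydrogenase, by -1.12 and 0.47. *Pcp4l1* and *Tnnt2*, cardiac troponin T, were at -0.56 and -0.71 in CV and completed the 5 genes with the largest difference below 0 among those named by the rule for CV alone.

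Some bone genes rose in CV, with no call in iWAT. *Col1a1*, the main collagen of bone, was at 1400.0, 931, 2025, 2436 and 3541 TPM in CV with PBS and at 3163, 6991, 7194, 5051 and 10063 TPM with leptin. In iWAT it was at 137, 343, 247, 126 and 164 TPM with PBS and at 152, 48.5, 210.4, 51.9 and 286 TPM with leptin. The groups overlapped slightly in CV and fully in iWAT. The change was 1.66 ± 0.37 in CV (adjusted p = 0.0225) and -0.35 ± 0.50 in iWAT, and the difference of 2.24 (95% interval 0.72 to 3.75) lay at the threshold, with an edgeR adjusted p of 0.0494, and was lost in 13 of 21 alternatives. *Phospho1*, a phosphatase that starts bone mineral, was at 79.5, 77.0, 91.7, 83.4 and 97.8 TPM in CV with PBS and at 114, 176, 139, 148 and 241 TPM with leptin. The iWAT values were 26.6, 28.2, 18.9, 29.3 and 20.4 TPM with PBS and 7.38, 18.8, 12.0, 11.1 and 20.6 TPM with leptin. The groups were apart in CV and overlapped in iWAT. The change was 0.92 ± 0.19 in CV and -0.73 ± 0.27 in iWAT, where it was not called (edgeR adjusted p = 0.0673). The difference was 1.70 (95% interval 1.26 to 2.14, edgeR adjusted p = 0.000585) and was past the threshold in each alternative. *Phospho1* kept the class of CV alone in 12 of 21 alternatives.

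Of 12 osteoblast and osteocyte markers, 4 rose in CV, among them *Sp7*, *Alpl* and *Col1a1*, and none passed in iWAT, and these 4 were all in the class of CV alone. Their summed level was 2847 to 7321 TPM with PBS and 5826 to 17634 TPM with leptin. None of the 4 passed in CV without the 3 mice with muscle in iWAT, nor with the lymphocyte covariate. In male CV *Col1a1* had a change of 0.15 and *Phospho1* of -0.26, neither called. *Mmp9*, a protease of osteoclasts and neutrophils, rose by 1.36 in CV and had 0.01 in males, *Col5a2* rose by 0.93, and *Adam12*, a metalloprotease, by 0.86. Of 12 cell cycle genes 10 rose in CV, by 0.96 to 1.43, and none in iWAT, but only *Cdk1* had a called difference (1.70), and with the lymphocyte covariate or without those 3 mice none of the 10 rises was called. With that covariate the tissue difference was called for all 12, and without those mice for none.

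Few markers of other cells passed the test, but several lists leaned one way. Neutrophil markers had a median change of -0.82 in CV with 11 of 12 below 0, and 2 of them rose in iWAT. Muscle markers had a median of -0.67 in CV with 11 of 12 below 0, and *Mb*, myoglobin, passed as a fall. Cartilage markers had a median of -0.57 in CV with all 10 below 0 and none called, and *Comp* and *Hapln1*, a link protein, had a called difference below 0. Lymphocyte markers were above 0 for all 12 in both tissues, with medians of 0.46 in CV, where 2 rose, and 1.26 in iWAT, where none was called. Of 12 macrophage markers 2 rose in each tissue, and of 9 mammary and 3 keratinocyte markers none was called. The part of these lists in the results was tested only through the muscle, lymphocyte and mammary covariates. With the muscle covariate 836 genes passed in CV, of which 432 were among the 749 of the main fit. It gave 122 genes in CV alone, of which 76 were among the 125 of the main fit. In both tissues it gave 211 genes (109 of the 163) and in opposite directions 24 (10 of the 22).

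The CV changes of the class of CV alone were checked in male mice, which took no part in defining it. No iWAT was sequenced from males, so the absence of a change in iWAT could not be checked there. Of its 125 genes 113 had the same sign in male CV (90.4%) against 69.4% of all tested genes, and 17 passed there in that direction and 1 in the other. The share was near that of 439 genes that passed in CV but not in iWAT, without a called difference (88.8%). It is therefore not particular to this class. In male CV 124 genes rose (0.834%) and 136 fell (0.914%). In LV 80 of the 125 had the same sign as in CV (64%) against 58.9% of all genes, and LV had 0 called genes (0%) by edgeR, with 2183 at an unadjusted p below 0.05 and 144 called by DESeq2. Female CV and LV come from the same animals. The count of 125 fell to 38 without PBS replicate 2, 42 without leptin replicate 4, 45 without PBS replicate 1, 69 without leptin replicate 5 and 26 without the 3 mice with muscle in iWAT. With the lymphocyte covariate 16 were left.

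**Figure D4:**
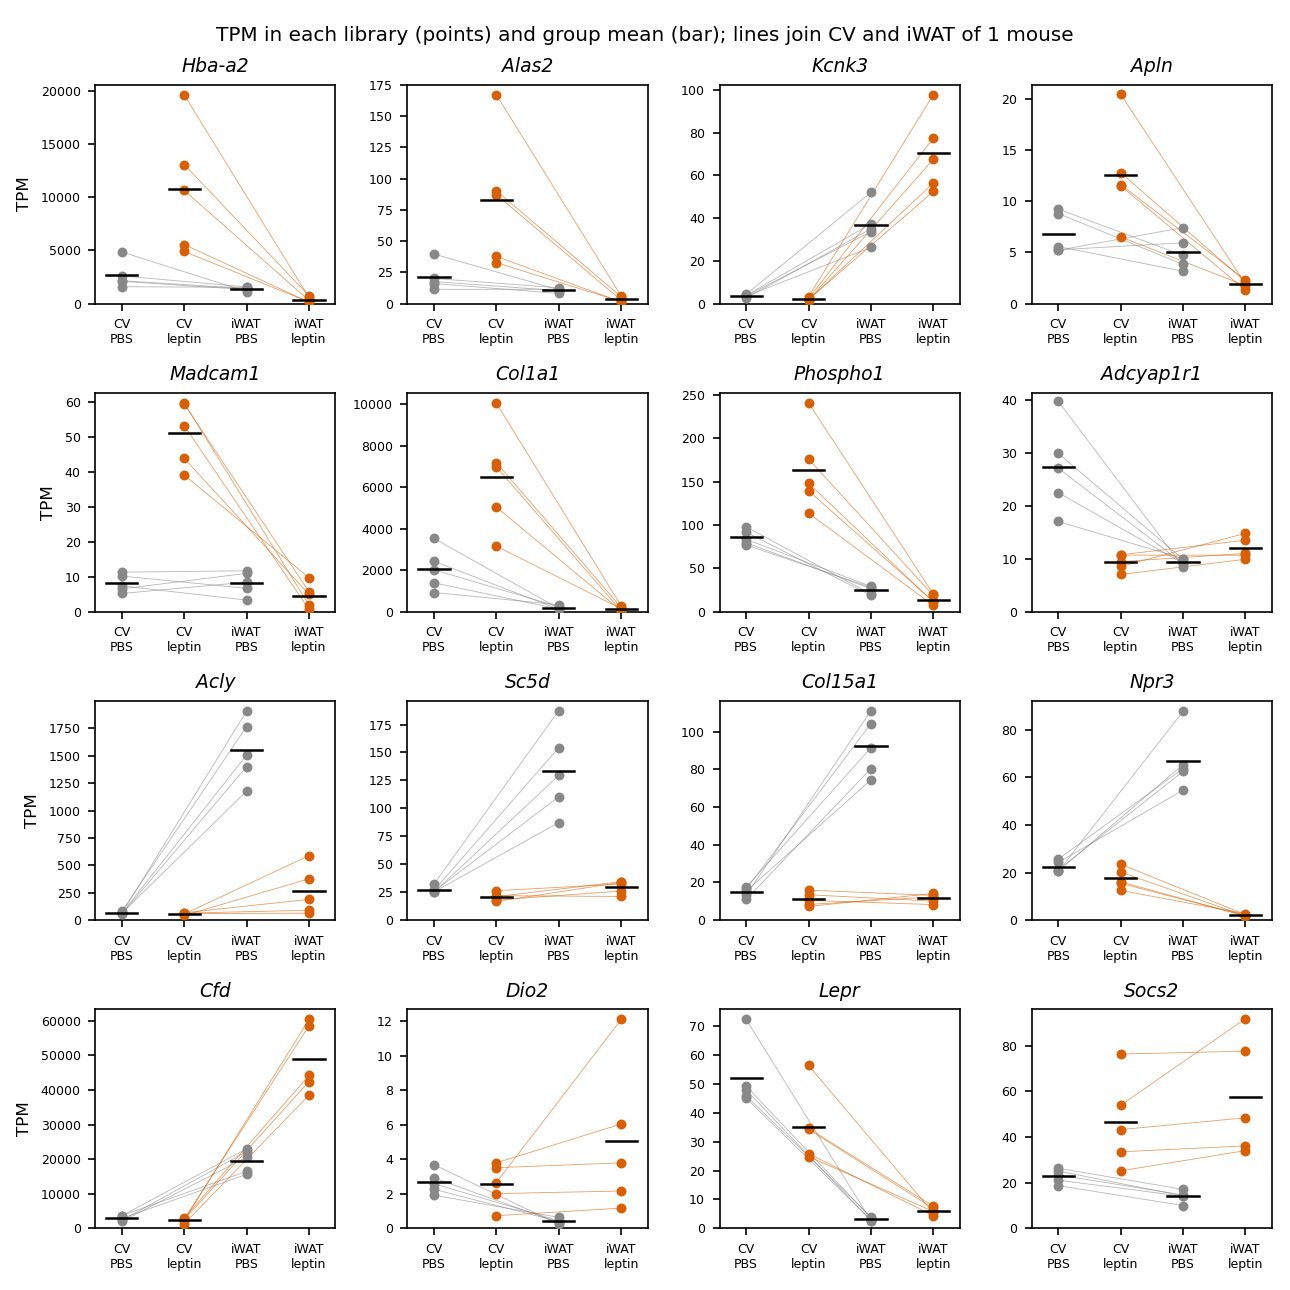
TPM (linear axes from 0) in each library for 16 genes, by tissue and treatment, with PBS in grey, leptin in orange, 5 points a group, a bar at the group mean and lines that join CV and iWAT of 1 mouse. *Madcam1* and *Adcyap1r1* separate by treatment in CV, and *Acly*, *Sc5d* and *Col15a1* in iWAT.

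iWAT alone showed 442 genes that rose and 646 that fell, and with limma on log2(TPM + 1) the share of rises in this class was 22.4% in place of 40.6%. The falls included enzymes that turn glucose into fat. *Acly*, ATP citrate lyase, was at 62.3, 80.0, 61.5, 54.2 and 62.3 TPM in CV with PBS and at 58.9, 41.8, 63.7, 66.8 and 55.0 TPM with leptin. Levels in iWAT were 1907, 1767, 1507, 1401 and 1177 TPM with PBS and 63.1, 377, 89.4, 189 and 588 TPM with leptin. The groups lay on top of each other in CV and were apart in iWAT, where the leptin mice differed widely among themselves. The change was -0.20 ± 0.11 in CV and -2.47 ± 0.55 in iWAT, and the difference was 2.78 (95% interval 1.49 to 4.07, edgeR adjusted p = 0.0104). *Acly* kept its class in 20 of 21 alternatives, all but the one without the 3 mice with muscle in iWAT.

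Of 16 genes of de novo lipogenesis 9 fell in iWAT and 1 rose, and 5 fell in CV. Their median change was -1.35 in iWAT and -0.39 in CV, and 6 had a called difference above 0 and 1 below. *Acss2*, which activates acetate, changed by -0.40 in CV and -2.63 in iWAT, *Scd2*, a fatty acid desaturase, by -0.39 and -2.53, and *Scd1* by -1.76 and -3.03. The called difference of *Scd1* was lost in 11 of 21 alternatives, DESeq2 among them. *Fasn*, fatty acid synthase, had changes of -0.90 and -1.40, neither called. *Elovl5*, which lengthens polyunsaturated fatty acids, went the other way, with 0.11 in CV and a rise of 0.87 in iWAT. Leaving out mice and other settings gave 5 to 12 falls in iWAT and 3 to 10 differences above 0. Of 14 genes of fatty acid uptake 8 fell in iWAT and 1 in CV, and *Fabp5*, a fatty acid carrier, differed by 2.39. Of 14 genes of triglyceride synthesis 6 fell in iWAT and 2 in CV, beside 7.87% and 2.25% of all tested genes. *Mogat2*, a monoacylglycerol acyltransferase, differed by 2.90, a call that was lost in 7 of 21 alternatives.

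Most genes of cholesterol synthesis fell in iWAT, and none passed the test in CV. Of 21 genes of cholesterol synthesis and transport 13 fell in iWAT and 1 rose, and 10 had a called difference, all above 0. The median change was -0.79 in iWAT and -0.06 in CV, beside 0.07 and -0.01 over all genes. The counts were 10 to 13 falls in iWAT and 7 to 12 differences over the alternatives, and 10 and 7 without the 3 mice with muscle in iWAT. *Sc5d*, sterol-C5-desaturase, was at 26.5, 32.1, 24.9, 25.2 and 25.6 TPM in CV with PBS and at 21.8, 16.6, 17.98, 26.3 and 21.0 TPM with leptin. iWAT libraries held 154, 188, 129, 87.2 and 110.3 TPM with PBS and 21.1, 33.7, 26.0, 32.3 and 34.4 TPM with leptin. The groups overlapped in CV and were wholly apart in iWAT. The change was -0.36 ± 0.10 in CV (adjusted p = 0.0518) and -1.99 ± 0.21 in iWAT, with a difference of 1.63 (95% interval 1.25 to 2.02, edgeR adjusted p = 0.000415). Steps early and late in the pathway moved alike in iWAT, from *Hmgcs1* (-1.66) and *Fdps* (-1.70) to *Lss* (-1.80), *Nsdhl* (-1.45) and *Dhcr7* (-0.98). *Srebf2*, the factor that drives the pathway, had a change of 0.33 in iWAT and *Msmo1* of -0.18, neither of them called. *Abcg1*, a sterol exporter, rose by 0.55.

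The 250 bases before the start of *Hmgcs1*, *Lss* and *Sc5d* are shown because these genes of successive steps fell in iWAT and had no call in CV (RefSeq, GRCm38.p6, at chr13:119690101-119690350, chr10:76531355-76531604 and chr9:42264301-42264550, on the plus, plus and minus strand). Capitals mark the CCAAT letters in either orientation (ATTGG on the strand shown) and, in *Hmgcs1* alone, the sterol regulatory element letters TCACNCCAC:
Hmgcs1: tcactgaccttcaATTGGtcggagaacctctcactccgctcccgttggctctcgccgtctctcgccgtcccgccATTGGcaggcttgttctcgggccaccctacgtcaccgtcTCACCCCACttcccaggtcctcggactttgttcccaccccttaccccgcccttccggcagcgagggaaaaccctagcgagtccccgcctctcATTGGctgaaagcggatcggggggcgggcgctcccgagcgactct
Lss: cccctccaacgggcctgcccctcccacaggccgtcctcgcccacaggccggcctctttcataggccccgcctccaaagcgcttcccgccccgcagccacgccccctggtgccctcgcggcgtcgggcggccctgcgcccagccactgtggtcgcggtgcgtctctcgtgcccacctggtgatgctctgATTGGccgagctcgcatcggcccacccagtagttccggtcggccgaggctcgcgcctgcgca
Sc5d: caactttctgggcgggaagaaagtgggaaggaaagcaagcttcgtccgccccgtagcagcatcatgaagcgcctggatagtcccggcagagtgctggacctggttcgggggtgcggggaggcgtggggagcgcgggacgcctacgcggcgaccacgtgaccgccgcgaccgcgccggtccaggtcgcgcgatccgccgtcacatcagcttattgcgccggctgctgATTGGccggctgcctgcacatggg
CCAAT letters were found in 12 of the 13 promoters available for this list (92.3%), in 9 of 13 for de novo lipogenesis and in 37.5% of 27025 promoters of the same length. The sterol regulatory element letters were found in 1 of the 13 and in 1.22% of all promoters. The motifs were matched as letters on both strands, and a match says nothing of binding.

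Genes of fat matrix were among the falls in iWAT alone. *Col15a1*, a basement membrane collagen, was at 16.4, 13.2, 17.4, 10.9 and 15.3 TPM in CV with PBS and at 7.24, 8.28, 13.4, 10.4 and 15.9 TPM with leptin. iWAT stood at 104, 111, 91.5, 80.4 and 74.4 TPM with PBS and at 14.1, 12.3, 10.1, 8.23 and 13.1 TPM with leptin. CV groups overlapped and iWAT groups were far apart. The difference was 2.49 (95% interval 1.94 to 3.04, edgeR adjusted p = 0.000304). *Col4a1* and *Col4a2*, the paired chains of type IV collagen, changed by -1.94 and -1.91 in iWAT and by -0.14 and -0.11 in CV. They lie head to head on chromosome 8 with annotated starts 21 bases apart. *Col18a1*, another basement membrane collagen, changed by -1.48 in iWAT and *Sparc*, a collagen-binding glycoprotein, by -1.51. Of 28 genes of fat matrix 7 fell in iWAT and none rose, 3 rose and 1 fell in CV, and 11 had a called difference, all above 0. The median change was -0.45 in iWAT and -0.04 in CV. The number of called differences was 6 to 14 over the alternatives and 6 without the 3 mice with muscle in iWAT.

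Among the rises in iWAT alone, *Cfd*, which encodes the adipokine adipsin, was at 2857, 3681, 3609, 2019.9 and 2300.4 TPM in CV with PBS and at 1298, 2942, 2696, 2504 and 2205 TPM with leptin. In iWAT it was at 15611, 16459.6, 22985, 20532 and 22194 TPM with PBS and at 38484, 44183, 58533, 42405 and 60362 TPM with leptin. The groups overlapped in CV and the iWAT groups did not. The change was 1.42 ± 0.21 in iWAT and -0.36 ± 0.26 in CV, with a difference of -1.75 (95% interval -2.48 to -1.02, edgeR adjusted p = 0.00636). *Adipoq*, adiponectin, fell by 0.89 in CV and had -0.44 in iWAT, with no called difference.

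*Dio2*, the deiodinase that makes active thyroid hormone in brown and beige fat, was at 2.58, 1.92, 2.26, 3.68 and 2.92 TPM in CV with PBS and at 3.51, 0.73, 3.79, 2.65 and 2.01 TPM with leptin. The iWAT values were 0.44, 0.63, 0.39, 0.23 and 0.32 TPM with PBS and 3.79, 1.17, 6.04, 12.1 and 2.16 TPM with leptin. Each leptin library stood above each PBS library in iWAT, and the CV groups overlapped. The difference was -3.55 (95% interval -4.66 to -2.44, edgeR adjusted p = 0.00171). Of 15 thermogenic and beige fat genes 4 rose in iWAT, namely *Dio2*, *Elovl3*, *Kcnk3* and *Gatm*, and 2 fell. Over all tested genes 7.24% rose and 7.87% fell in iWAT. *Ucp1*, the uncoupling protein of brown fat, had changes of 1.22 in iWAT and -0.51 in CV, and neither passed the test. Without the 3 mice with muscle in iWAT 2 of the 15 rose.

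Of 19 receptors that steer lipolysis, 9 fell in each tissue and 3 rose in iWAT. Of the 19, 8 were called in both tissues with the same sign and none with opposite signs, 4 differences were above 0 and 3 below. *Adrb3*, the beta-3 receptor typical of white fat, was on average at 264 TPM in iWAT with PBS and 77.3 TPM with leptin, a change of -1.69 that did not pass, and below 1 TPM in CV. *Lepr*, the leptin receptor, was at 47.9, 72.4, 45.1, 49.3 and 45.9 TPM in CV with PBS and at 34.6, 25.9, 56.4, 34.2 and 24.9 TPM with leptin. iWAT libraries held 2.59, 2.70, 2.99, 3.60 and 4.02 TPM with PBS and 7.66, 4.42, 5.34, 6.92 and 5.83 TPM with leptin. The groups overlapped in CV, with 4 of 5 leptin libraries below the PBS group, and did not overlap in iWAT. The change was -0.62 ± 0.20 in CV (adjusted p = 0.071) and 1.01 ± 0.17 in iWAT, and the difference was -1.60 (95% interval -2.20 to -0.99, edgeR adjusted p = 0.00426). *Adora1*, the adenosine receptor that restrains lipolysis, changed by -1.53 in CV and -2.12 in iWAT, and *Sucnr1*, the succinate receptor, by -1.72 and -2.34, with no called difference for either.

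The rises in iWAT alone also took in genes outside fat metabolism. *Mup19* and *Mup11*, major urinary protein genes, changed by 5.73 and 6.79 in iWAT. They belong to a cluster of near-identical copies, so the value of a single member is uncertain, and the difference of *Mup11* was lost in 7 of 21 alternatives. *Cyp2f2*, a cytochrome P450, rose by 3.51 in iWAT and had 0.16 in CV, and *Calml3*, a calmodulin-like protein, rose by 3.52 and had 0.21. *Mup19* was on average at 222 TPM in iWAT with PBS and 10876 TPM with leptin. In LV of the same mice *Mup11* had a change of 5.49 ± 0.80 (edgeR adjusted p = 0.0559) and *Mup19* of 2.57, and in male CV they had 2.83 and 1.75, none of these called. *Hamp2*, a hepcidin gene, rose by 3.20, had 2.62 in LV, not called, and kept its class in 13 of 21 alternatives. Among falls, *Cdr2* changed by -2.92, *Nol3*, an inhibitor of apoptosis, by -3.20 and *Fads3*, a desaturase, by -2.87, each with less than 0.30 on the log2 scale either way in CV. These 3, *Cyp2f2* and *Calml3* kept their class in each of 21 alternatives. *Hbb-bt*, a beta haemoglobin gene, fell in iWAT by 1.87 and had a change of 1.54 in CV that narrowly missed the test (edgeR adjusted p = 0.0545).

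Imprinted growth genes fell mainly in iWAT. Of 10 tested, 6 fell in iWAT and none rose, 1 rose and 1 fell in CV, and 5 had a called difference, all above 0. *Mest*, an adipocyte gene tied to fat expansion, changed by -0.60 in CV, where it was not called, and -1.86 in iWAT, and *Peg10* by 0.26 and -1.33. The iWAT falls numbered 6 in each alternative, and the called differences 2 to 5. Of 18 genes of insulin signalling and glucose uptake 5 fell and 3 rose in iWAT, beside 7.87% and 7.24% of all tested genes. *Slc2a4*, the insulin-responsive glucose transporter, changed by -1.44 in iWAT and -0.44 in CV, with a called difference of 1.14. *Hsd11b1*, which regenerates active glucocorticoid, changed by -0.70 and -1.97, with a difference of 1.38. Of 27 genes of BMP and activin signalling 1 rose and 1 fell in CV, beside 2.78% and 2.25% of all tested genes. The rise was that of *Bmp4*, in CV alone, by 1.06.

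**Figure D5:**
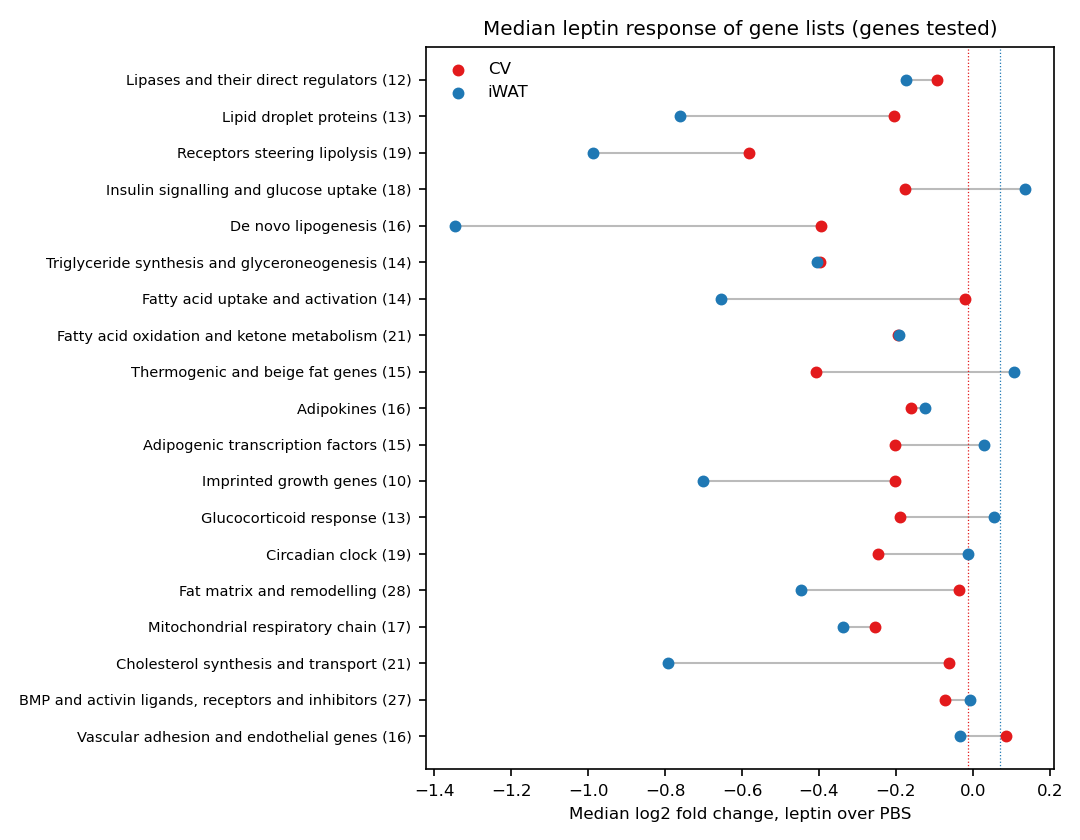
Median leptin change (log2) of each gene list in CV and in iWAT, with the median of all 14873 tested genes as a reference. The medians of cholesterol synthesis (-0.06 in CV and -0.79 in iWAT) and of de novo lipogenesis (-0.39 and -1.35) lie well apart between the tissues.

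Of 21 genes of fatty acid oxidation 3 rose and 3 fell in iWAT and 1 fell in CV, and 4 had a called difference, 1 above 0 and 3 below. Over all tested genes 7.24% rose and 7.87% fell in iWAT, 2.25% fell in CV and 11.6% had a called difference. Of 17 genes of the respiratory chain 5 fell in iWAT and none moved in CV, with 1 called difference (*Cox6a1*, 0.75), and of 15 adipogenic transcription factors none had a called difference above 0 and 1 had 1 below (*Klf15*, -0.55). Of 19 clock genes *Bhlhe40* and *Nr1d2* had a called difference. In the respiratory chain, transcription factor and clock lists the share with a called difference was no larger than the 11.6% of all tested genes. The 425 genes with a called difference and no call in either tissue included *Cldn22* (3.16), *Col5a1* (1.43), *Postn* (1.23), *Ffar4* (1.10) and *Ckb* (1.09) above 0 and *Mss51* (-2.28), *Sfrp4* (-1.32), *Comp* (-1.14), *C4b* (-1.04) and *Apol10b* (-0.94) below. *Mss51* is a muscle gene that was at 136 TPM in PBS CV and 0.77 TPM in PBS iWAT, and *Comp* is a matrix protein of cartilage and tendon.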

How the data were processed

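RNA of CV and iWAT was sequenced from oligo dT libraries. The authors filtered reads with SOAPnuke and mapped them with HISAT and Bowtie2 to GRCm38.p6 (the submitters' processing notes also list GRCm39). The counting tool and strand setting are not given in the sources used here. The deposited estimated counts, 51 of them not whole, were rounded, and the deposited TPM were used for levels.

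Testing covered the 14873 genes that averaged 0.4 TPM or more across 79 libraries, and used edgeR 4.0.16 (TMM, quasi-likelihood F test, Benjamini-Hochberg) in R 4.3.3, each tissue alone and the tissue difference with mouse as a block. Residuals of CV and iWAT of 1 mouse correlated at 0.0151 to 0.383. Calls needed an adjusted p below 0.05 and an absolute log2 value of at least 0.5. In each class the 5 largest differences each way were named among genes at 1 TPM or more in both tissues and 5 TPM in 1, without overlap of within-mouse differences. Members and gene lists were chosen with earlier results of these data known. Alternatives used DESeq2 1.42.0, limma 3.58.1, other filters, scalings, covariates and thresholds, and each mouse left out. A marker covariate was the mean log2(TPM + 1) of a marker list, centred by tissue in the test of the difference. The code was tested on simulated data. P-values measure the spread between these mice. Some genes are not reported here.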

Additional observations from a re-analysis of the deposited data

Results flagged for a closer look

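The leptin change differed between CV and iWAT for 1718 genes by edgeR's test of the difference. Among the genes given by library, the change in CV minus that in iWAT was above 0 for *Npr3* (4.56), *Hba-a2* (4.00), *Alas2* (3.66), *Madcam1* (3.59), *Acly* (2.78), *Col15a1* (2.49), *Col1a1* (2.24), *Apln* (2.13), *Lep* (1.98), *Phospho1* (1.70) and *Sc5d* (1.63). It was below 0 for *Dio2* (-3.55), *Adcyap1r1* (-1.93), *Kcnk3* (-1.76), *Cfd* (-1.75), *Lepr* (-1.60) and *Socs2* (-1.09).

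Single libraries stood apart from the other 4 of their group in 5 of 116 groups examined, where chance gives about 1 in 20. *Lep* was at 1.71 TPM in CV and at 6.00 TPM in iWAT of leptin replicate 2, and the summed muscle markers were at 4787 TPM in the same iWAT library. In CV of PBS replicate 2, *Sc5d* was at 32.1 TPM and *Lepr* at 72.4 TPM.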

How the results depend on the processing

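Through the alternatives 143 gene results were followed, all of them called in the main fit, so a change of sign was unlikely from the start. None of the 143 changed sign, 78 passed in each alternative and 65 lost the call in at least 1. DESeq2 called 257 genes in both tissues, 40 in opposite directions, 464 in male CV and 144 in LV. The lymphocyte covariate left 108 genes in CV, 16 in CV alone, 58 in both and 1 in opposite directions. All 12 lymphocyte markers had a leptin change above 0 in both tissues, and how much of the leptin change this covariate took up was not tested. Without a fold threshold there were 1306 genes in CV, 3872 in iWAT, 207 in CV alone, 333 in both and 60 in opposite directions. At a fold threshold of 1 there were 602 differences, 222 genes in CV, 742 in iWAT, 40 in CV alone, 376 in iWAT alone, 45 in both and 4 in opposite directions. Without the 3 mice with muscle in iWAT, a choice made after seeing the data, there were 987 differences (839 of them among the 1718), 300 genes in CV, 26 in CV alone, 706 in iWAT alone and 4 in opposite directions. With mouse number series (100s or 600s) as a covariate, the fit gave 416 genes in male CV and 78 in LV.

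Leaving out 1 mouse gave 1135 (without leptin replicate 4) to 1880 differences, 302 to 941 genes in CV, 1744 to 2845 in iWAT, 38 to 165 in CV alone, 733 to 1233 in iWAT alone, 89 to 264 in both, 1 to 26 in opposite directions, 130 to 338 in male CV and 0 to 4 in LV. CV fell to 303 genes without PBS replicate 1, 302 without PBS replicate 2, and 373 without leptin replicate 4, and the shared class to 89 without PBS replicate 2.

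Without the mouse block 1683 differences were called. Replicate numbers across treatments name different animals and were not a pairing: as a replicate block they gave 832 genes in CV, 2229 in iWAT, 66 in male CV and 0 in LV. The cause of these shifts was not tested. Near the thresholds, 5 mice a group limit the calls: the 95% interval of a tissue difference reached, at the median, 0.378 to either side on the log2 scale.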
